A study of Mus musculus with 53 samples.

Results

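Wnt/beta-catenin target genes were examined in a mouse model of synovial sarcoma, a soft tissue sarcoma driven by fusions of *SS18* with an *SSX* gene. The set was a list of 10 genes, and its members were all probe sets whose platform symbol was 1 of them. Of the 10 genes, 9 had a probe set and *Tcf7* had none named here, which left 19 of the 45141 probe sets on the array and 9 of its 17097 named genes. *Ctnnb1* had 3 probe sets, *Axin2* 2, *Lgr5* 2, *Nkd1* 4, *Znrf3* 2 and *Apcdd1* 3, and *Lef1*, *Rnf43* and *Sp5* had 1 each. The brightest probe set over all arrays stood for a gene where 1 value was needed, and probe sets were never ranked against each other.

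Total RNA from 53 samples was measured on a mouse GeneChip array, 1 array a sample. There were 13 tumors carrying *SS18-SSX1* and *miR-214* (SS214), 12 tumors carrying *SS18-SSX1* (SS), 4 arrays of embryonic mesenchymal cells (eMCs) at 48 h after a retrovirus with *SS18-SSX1*, 4 arrays of eMCs at 48 h after the empty virus, and 4 arrays of a mixture of normal mouse tissues. The lines SS64 and SS40, each derived from a mouse synovial sarcoma, gave 4 arrays with *miR-214* and 4 with its control (NC) apiece. The tumors grew under the skin of Balb/c nude mice, which lack T cells, from eMCs that had received human *SS18-SSX1* by retrovirus, so that a tumor sample also holds host cells. The empty virus of the controls and the *SS18-SSX1* virus carried a GFP cassette, and in the virus of SS214 tumors *miR-214* took the place of GFP. The eMCs came from the limbs of BALB/c embryos late in gestation, the age of the recipient mice is not given in the sources used here, and no source states whether the 4 arrays of a culture or of the tissue mixture came from separate preparations. For those groups a p-value reflects only how far these arrays vary, which may be technical.

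In canonical Wnt signaling, a secreted Wnt ligand binds a Frizzled receptor with an LRP co-receptor, the complex that marks beta-catenin for degradation is inhibited, and beta-catenin enters the nucleus and activates genes bound by TCF/LEF factors. Many of the genes it activates feed back on the pathway, among them *Axin2*, *Nkd1*, *Znrf3*, *Rnf43* and *Apcdd1*, and their mRNA is widely used as a readout of signaling. Beta-catenin itself is controlled mainly through the stability of its protein, which arrays do not measure.

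TCF/LEF factors bind a short motif, so the promoters of the members were searched for it (CTTTG followed by A or T at each of the next 2 bases, on both strands, with overlaps counted) in RefSeq windows of 300 bases (250 before and 50 after a start, build GRCm38.p6). At least 1 match was present in 16.9% of the 32851 windows of all genes, and at least 2 in 1.94%. No window was at hand for *Lgr5* and *Znrf3*, and *Apcdd1* was left out of the search of the members. The search covered windows of 7 members, 13 in all. Of these, 1 of the *Lef1* windows held a single match and the *Sp5* window held 2, while those of *Axin2* held none. The *Sp5* window is shown because this gene, with no other probe set, was called higher in tumors. It lies at chr2:70474673-70474972 on the plus strand, with the matches in capitals, 222 and 104 bases before the start.
*Sp5* promoter: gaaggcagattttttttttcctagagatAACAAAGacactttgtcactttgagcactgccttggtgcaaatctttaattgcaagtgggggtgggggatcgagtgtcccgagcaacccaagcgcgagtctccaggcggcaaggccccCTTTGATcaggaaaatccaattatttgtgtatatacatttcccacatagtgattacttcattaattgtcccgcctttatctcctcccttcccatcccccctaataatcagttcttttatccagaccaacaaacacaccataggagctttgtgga

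Median intensity ran from 22.6 to 26.9 over the arrays on a linear scale, and values under 11.7, the floor, were raised to it before log2. A gene "passed" at an adjusted p under 0.05 (limma, Benjamini-Hochberg over all probe sets tested) and was "called" if it also differed over 2-fold. The *Gapdh* ratio, that is, log2 of its 3′ over its 5′ control probe set, which grows as RNA degrades, was 0.85 ± 0.37 (SD, n = 12) in SS tumors, against 0.06 ± 0.14 (n = 13) in SS214 tumors, and the means of the other groups lay between -0.18 and 0.06. The sum of 8 skeletal muscle markers ran from 11883 to 48867 in SS tumors and from 498 to 541 in eMCs with the empty virus. In bulk RNA, fewer cells of a type and less RNA per cell cannot be told apart.

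SS tumors were set against the normal tissue mixture, against eMCs with the empty virus, the untransformed cell of origin, and against eMCs with *SS18-SSX1*. *Axin2*, *Lgr5* and *Sp5* were higher in SS tumors in all 3 comparisons, with no overlap between the groups. *Apcdd1* and *Znrf3* were also higher. At their brightest probe sets, *Nkd1* was lower than in the tissue mixture and *Ctnnb1* differed by less than 2-fold. The 3 comparisons share the 12 SS tumors and are therefore not independent of each other.

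*Axin2* encodes a scaffold of the beta-catenin destruction complex and acts as a feedback inhibitor. Its intensity in SS tumors was 208 at the lowest, 366 at the median and 467 at the highest. It was 48.5, 49.1, 52.7 and 51.0 in eMCs with *SS18-SSX1*, 65.5, 59.3, 62.3 and 69.3 in eMCs with the empty virus, and 75.5, 85.5, 83.3 and 82.3 in the tissue mixture. Every SS tumor was thus above every array of the other 3 groups. The log2 difference was 2.06 (SE 0.17, adjusted p 8.8e-09, 4.17-fold) from the tissue mixture, 2.41 (SE 0.17, adjusted p 1.13e-09, 5.31-fold) from eMCs with the empty virus and 2.76 (adjusted p 2.02e-10, 6.75-fold) from eMCs with *SS18-SSX1*. The other *Axin2* probe set, 1421341_PM_at, had group means near the floor, 3.71 in SS tumors against 3.58 in the tissue mixture on the log2 scale (adjusted p 0.125).

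*Lgr5* encodes a receptor for R-spondins, secreted proteins that amplify Wnt signals, and marks stem cells of the intestinal crypt. In SS tumors its intensity was 538 at the lowest, 728 at the median and 968 at the highest. It was 17.4 to 22.5 in eMCs with *SS18-SSX1*, 16.2 to 19.3 in eMCs with the empty virus and 17.4 to 21.4 in the tissue mixture, so that the lowest tumor stood far above all 12 of these arrays. *Lgr5* was 37.1-fold higher than in the tissue mixture (log2 difference 5.21, SE 0.16, adjusted p 3.36e-15) and 40.4-fold higher than in eMCs with the empty virus (5.34, SE 0.16, adjusted p 8.52e-15). The sum of 7 intestinal epithelium markers was 118 to 160 in SS tumors, against 103 to 107 in eMCs with the empty virus and 2466 to 2710 in the tissue mixture. *Vil1*, *Fabp2* and *Krt20* were at the floor in all SS tumors. *Lgals4* had a log2 mean of 5.56 in SS tumors against 4.24 in those eMCs, and *Cdh17* 3.56 against 3.55. *Olfm4* went the other way, at 3.91 against 4.17, and so did *Reg3b*, at 4.24 against 4.44. The other probe set of *Lgr5*, 1444519_PM_at, was at or near the floor in every group and was not tested here.

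*Sp5*, a zinc finger transcription factor, had intensities from 37.2 to 229 in SS tumors, with a median of 90.2, the widest relative range of the genes higher in tumors. They were 23.5 to 28.1 in eMCs with *SS18-SSX1*, 17.1 to 22.8 in eMCs with the empty virus and 24.1 to 27.5 in the tissue mixture. The groups did not overlap, and *Sp5* was 3.70-fold higher than in the mixture (log2 difference 1.89, SE 0.34, adjusted p 0.000121) and 4.71-fold higher than in eMCs with the empty virus (2.24, SE 0.34, adjusted p 1.91e-05).

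*Apcdd1* encodes a membrane protein that inhibits Wnt signaling at the cell surface. SS tumors ranged from 302 to 1261 with a median of 645, and the tissue mixture from 172 to 201. The difference was 1.75 on the log2 scale (SE 0.28, adjusted p 3.32e-05, 3.35-fold). Against eMCs with the empty virus, at 298, 359, 330 and 298, the groups overlapped and the difference of 0.96 (SE 0.28, adjusted p 0.00572) passed without reaching 2-fold at the brightest probe set, while probe set 1418382_PM_at was called at 1.06. Probe set 1418383_PM_at was higher by 1.65 (adjusted p 0.000335) than in the mixture.

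*Znrf3* and *Rnf43* encode related ubiquitin ligases that remove Frizzled receptors from the cell surface. *Znrf3* was 154 to 284 in SS tumors (median 207), 138, 148, 149 and 142 in eMCs with the empty virus and 114 to 132 in the tissue mixture. It was higher by 0.79 on the log2 scale than in the mixture (SE 0.14, adjusted p 6.99e-05) and by 0.56 than in eMCs with the empty virus (SE 0.13, adjusted p 0.00137), with no overlap in either case. Its weaker probe set, 1437646_PM_at, did not pass, at log2 means of 4.10 in SS tumors against 4.00 in the mixture (adjusted p 0.356) and 4.09 in those eMCs (adjusted p 0.918). *Rnf43* was under the floor in 10 of 12 SS tumors and 23.6, 24.6, 28.2 and 24.2 in the mixture, with no overlap. It was tested only because the mixture arrays were above the floor, so that it had to differ, and no fold or p is read from it. In eMCs all 8 arrays were under the floor and no comparison was made.

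*Nkd1*, which binds Dishevelled and restrains Wnt signaling, was 48.0 to 96.8 in SS tumors with a median of 66.7, against 134, 159, 180 and 173 in the tissue mixture. It was 2.32-fold lower in the tumors (log2 difference -1.21, SE 0.18, adjusted p 1.43e-05). Of its weaker probe sets, 1417278_PM_a_at had log2 means of 3.83 in SS tumors and 4.5 in the mixture. The means were close in 1429507_PM_at (4.45 against 4.52) and 1440446_PM_at (4.00 against 4.02). Against eMCs with the empty virus, at 58.0 to 74.7, the brightest probe set differed by 0.05 (adjusted p 0.814), and the 3 weaker probe sets of the gene were lower by 0.59, 0.30 and 0.21 in tumors and passed. Of *Lef1*, a TCF/LEF factor that binds DNA with beta-catenin, SS tumors had 12.3 to 31.2 (median 19.5). The tissue mixture was below the floor in all 4 arrays, which makes *Lef1* at least 1.62-fold higher in tumors, and its p is not read because it was tested only through the tumors. Against eMCs with the empty virus, at 16.2, 17.6, 19.6 and 16.7, the difference was 0.11 (adjusted p 0.633). With only SS tumors 24, 27 and 29, those of lowest *Gapdh* ratio, both genes passed as higher than in these eMCs, *Lef1* by 0.53 (adjusted p 0.00547) and *Nkd1* by 0.46 (adjusted p 0.00403). The sum of 10 T cell markers, cells that also express *Lef1*, was 1450 to 2298 in SS tumors and 229 to 245 in those eMCs, and its part was not tested. *Bcl11b* gave most of it, at a log2 mean of 10.56 in the tumors against 4.62. *Cd3d* averaged 5.46 against 4.91, *Cd3g* 4.22 against 3.56 and *Cd2* 4.47 against 3.94, whereas *Cd3e* averaged 6.09 against 6.19 and *Cd8a* 4.44 against 4.65.

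*Ctnnb1* encodes beta-catenin. Its brightest probe set, 1420811_PM_a_at, was 4307 to 4922 in SS tumors (median 4661), against 3917 to 3974 in eMCs with the empty virus and 3491 to 3581 in the tissue mixture. These narrow differences passed, at 0.23 (adjusted p 3.44e-05) and 0.39 (adjusted p 6.31e-08) on the log2 scale. The other probe sets did not move alike. Probe set 1430533_PM_a_at was lower in SS tumors than in eMCs with the empty virus by 1.10 (6.79 against 7.89, adjusted p 0.000582), and 1450008_PM_a_at differed by -0.25 (adjusted p 0.107). With the *Gapdh* ratio as a covariate, 1430533_PM_a_at differed by -0.65 and did not pass (adjusted p 0.14), and with only SS tumors 24, 27 and 29 by -0.72 (adjusted p 0.00632), so that it was called lower in neither. The ratios of SS tumors and these eMCs did not overlap, so the covariate cannot be separated from the contrast. No direction for *Ctnnb1* mRNA in tumors against these eMCs was shared by all of its probe sets.

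**Figure D1:**
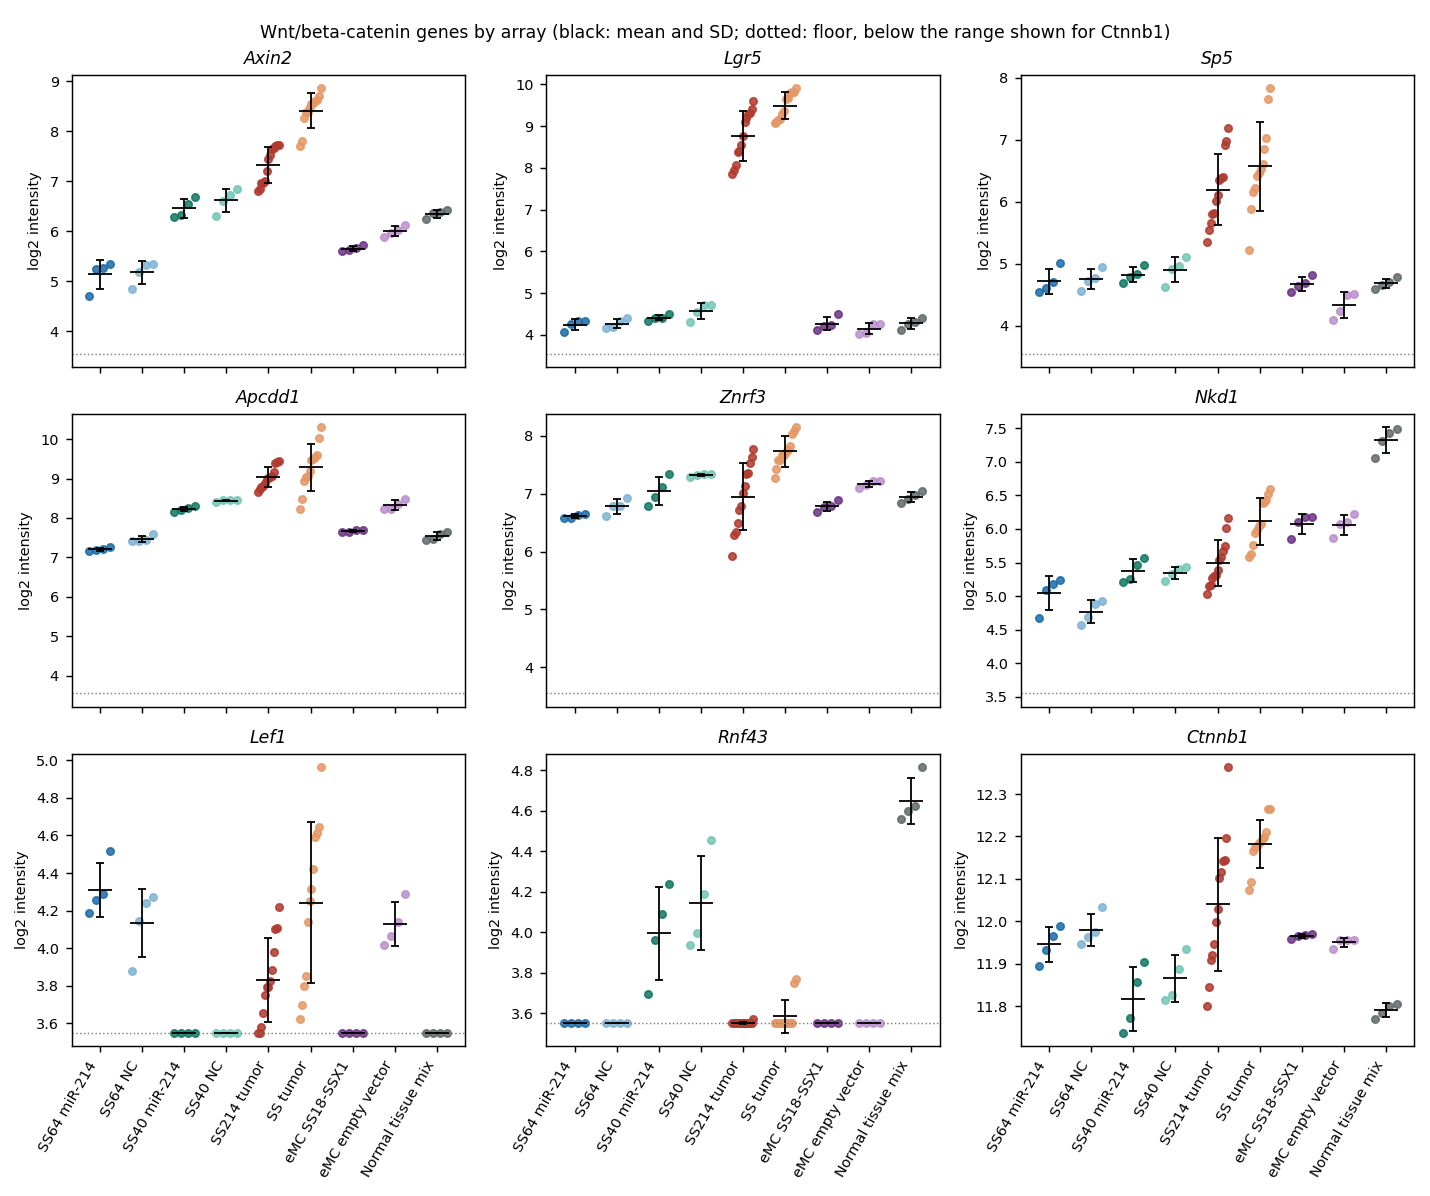
Log2 intensity of the brightest probe set of the 9 measured genes (y axis) in the 9 groups (x axis), with 1 point an array, the group mean and SD in black and the floor dotted. *Lgr5* lies near 9.49 in SS tumors and near 8.76 in SS214 tumors, and at 4.15 to 4.57 in the other groups, while *Nkd1* and *Rnf43* are highest in the normal tissue mixture.

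Counted over probe sets, 6 of the 18 tested against the tissue mixture were called higher and 2 lower, beside 9.07% and 9.54% of all 38130 probe sets tested, and 12 passed at any fold change, beside 55.3%. *Rnf43* is 1 of the 2 lower, and *Rnf43* and *Lef1*, whose p is not read, are among the 12. Against eMCs with the empty virus, 4 of 17 were called higher and 1 lower, beside 11.6% and 7.57%, and 12 passed, beside 64.5%. There 6 were called higher and 0 lower with the *Gapdh* ratio as a covariate, and likewise with only SS tumors 24, 27 and 29. The ratio was at least 0.326 in SS tumors and at most 0.064 in those eMCs, so the covariate cannot be separated from the contrast. Against eMCs with *SS18-SSX1*, 6 of 17 were called higher and 1 lower, beside 10.6% and 8.49%, and 12 passed, beside 59.9%. *Lef1*, under the floor in all arrays of those eMCs, is among these 12. By the brightest probe set of a gene the median difference of the members was 0.79 from the mixture and 0.76 from eMCs with the empty virus, where the median over all genes was 0.07 and -0.03.

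**Figure D2:**
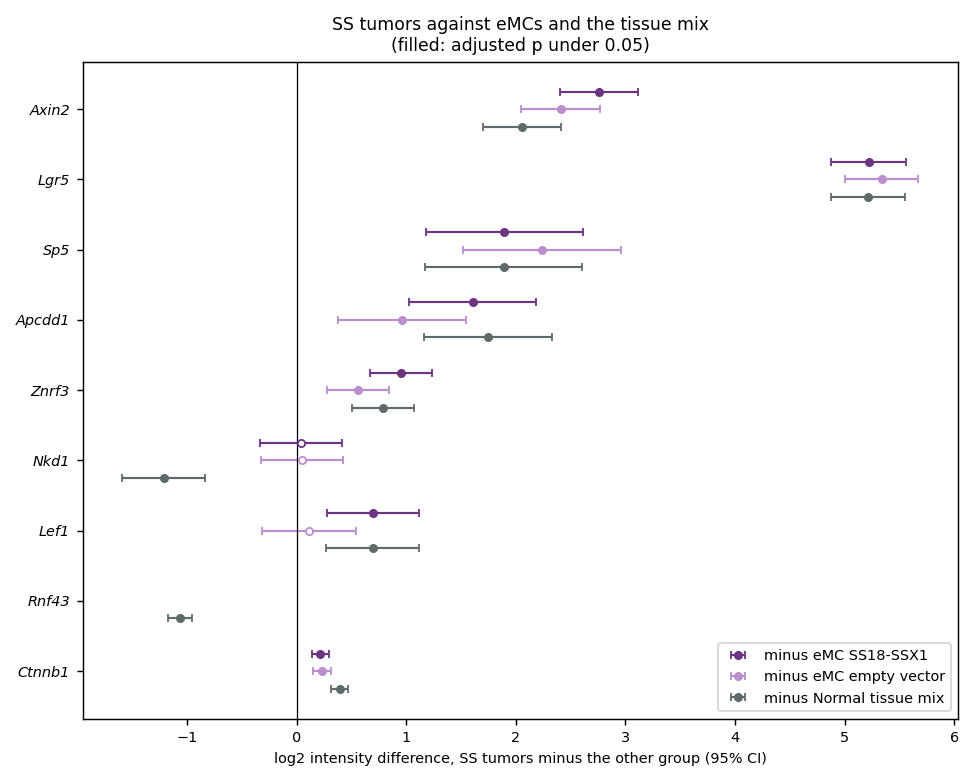
Log2 differences between SS tumors and their 3 comparison groups with 95% confidence intervals (x axis) for the brightest probe set of each gene tested (y axis), filled where the adjusted p is under 0.05. *Lgr5* lies at 5.21 to 5.34, and *Nkd1* lies at -1.21 against the tissue mixture, and *Rnf43*, under the floor in 10 of 12 SS tumors, is drawn below 0 as well.

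Other pathway genes were read from 8 lists, with gene counts set beside the 11.3% of genes called higher and 13.8% called lower against the tissue mixture, and 14.5% and 8.70% against eMCs with the empty virus. Among 15 nuclear partners of beta-catenin, 8 were called higher and none lower against the mixture, and 7 higher and none lower against eMCs. The largest rises were in *Tle2* (3.61 and 3.54 on the log2 scale) and *Tle3* (3.02 and 3.50), Groucho corepressors that bind TCF/LEF factors, and *Tcf7l2*, a TCF/LEF factor, was higher by 2.16 than in the mixture. Of 14 Dishevelled and destruction complex genes, 4 were called higher and none lower in each comparison.

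Among ligands and the factors that amplify them, *Rspo3*, an R-spondin, was higher by 3.82 than in the mixture (log2 mean 9.42 against 5.60, adjusted p 1.18e-15) and by 2.37 than in eMCs with the empty virus, whereas *Rspo2* was lower by 2.11 than in those eMCs. *Wnt16* was higher by 3.86 and 3.57, and of the 18 ligands tested 5 were called higher and 1 lower against the mixture, and 5 higher and none lower against eMCs. Of 14 receptor genes, 4 were called higher and none lower against the mixture, and 4 higher and 3 lower against eMCs, where the Frizzled receptor *Fzd9* was lower by 4.34. The 13 secreted antagonists gave 3 higher and 2 lower against the mixture, and none higher and 5 lower against eMCs, among them *Sfrp1* by -1.84 and *Wif1* by -1.50.

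Further genes described as Wnt targets did not move as a block. Against eMCs with the empty virus 4 of 12 were called higher and 5 lower, with *Cdx2*, an intestinal homeobox factor, higher by 4.43 and *Tnfrsf19* by 3.22, and with the cartilage factor *Sox9* lower by 3.66, the adhesion receptor *Cd44* by 2.96 and the proliferation factor *Myc* by 2.15. The summed cartilage markers were 741 to 1449 in SS tumors and 26176 to 26609 in those eMCs. Of adherens junction genes, whose cadherins bind beta-catenin at the membrane, *Cdh2* was higher by 2.13 than in the mixture and 2.70 than in the eMCs, and *Cdh1*, the epithelial cadherin, was lower by 4.73 than in the mixture. The part of cell type composition in these differences was not tested.

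The eMCs with *SS18-SSX1* were set against those with the empty virus at 48 h. *Axin2*, *Znrf3* and *Apcdd1* were lower in eMCs with *SS18-SSX1* than with the empty virus, *Sp5* was higher, and none reached 2-fold. *Apcdd1* was 202, 207, 201 and 209 in eMCs with *SS18-SSX1*, against 298, 359, 330 and 298 with the empty virus. It fell by 0.65 on the log2 scale (SE 0.06, adjusted p 1.45e-07), and its probe set 1418383_PM_at fell by 0.42 (adjusted p 0.00232). *Znrf3* was 118, 110, 103 and 109 against 138, 148, 149 and 142, a fall of 0.39 (SE 0.06, adjusted p 4e-05). *Axin2*, with the intensities given above, fell by 0.35 (SE 0.07, adjusted p 0.00119). None of these genes overlapped between the groups.

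*Sp5* was 26.0, 28.1, 25.02 and 23.5 in eMCs with *SS18-SSX1*, against 22.8, 18.9, 17.1 and 22.6 with the empty virus, and rose by 0.34 (SE 0.10, adjusted p 0.0119) without overlap. *Lef1* was under the floor in all 4 arrays with *SS18-SSX1* and was at least 1.49-fold lower there, and its p is not read because it was tested only through the empty virus arrays. *Lgr5* differed by 0.12 (adjusted p 0.311), *Nkd1* by 0.01 (adjusted p 0.917) and *Ctnnb1* by 0.01 (adjusted p 0.443). Weaker probe sets of both genes passed, however, with *Nkd1* lower by 0.32 in 1417278_PM_a_at (adjusted p 0.0115) and by 0.22 in 1440446_PM_at (adjusted p 0.0402), and *Ctnnb1* higher by 0.17 in 1450008_PM_a_at (adjusted p 0.0107, no overlap). *Znrf3* 1437646_PM_at did not pass (0.03, adjusted p 0.768). Over probe sets 10 of 17 passed at any fold change, beside 41.3% of all probe sets. Of the 10, 2 were higher and 8 lower, beside 22.8% and 18.5%, with *Lef1* among the 8. None was called, beside 2.59%.

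Other changes went with this contrast. The mast cell marker sum was 1674 to 1725 with *SS18-SSX1* against 133 to 139 with the empty virus, the neutrophil sum 4208 to 4316 against 443 to 495, the endothelial sum 1024 to 1067 against 198 to 213 and the cartilage sum 15006 to 15408 against 26176 to 26609. Their part in the member differences was not tested, nor was that of a difference between the cell preparations. In 1 fit of all 53 arrays, with a spread shared by all groups, the adjusted p was 0.317 for *Axin2*, 0.336 for *Znrf3*, 0.61 for *Sp5* and 0.0567 for *Apcdd1*. With the *Gapdh* ratio as a covariate it was 0.837, 0.167 and 0.333 for *Axin2*, *Znrf3* and *Sp5*. That ratio ran from -0.169 to -0.117 with *SS18-SSX1* and from -0.015 to 0.064 with the empty virus. Without overlap the covariate cannot be separated from the contrast, and no conclusion on RNA quality is drawn from this fit.

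The group means of *Axin2* fell in this order, from the highest: SS tumors at 8.41 on the log2 scale, SS214 tumors at 7.32, SS40 with NC at 6.61, SS40 with *miR-214* at 6.46, the tissue mixture at 6.35, eMCs with the empty virus at 6.00, eMCs with *SS18-SSX1* at 5.65, SS64 with NC at 5.17 and SS64 with *miR-214* at 5.14. Neighbours overlapped in their single arrays from SS tumors down to the tissue mixture and again between the 2 SS64 groups, and did not overlap at the 3 steps between. For *Lgr5* the only step without overlap lay between SS214 tumors at 8.76 and SS40 with NC at 4.57. Over the 9 group means, the genes whose pattern was most like that of *Axin2* were *Galt* (r = 0.97), *Tanc1*, *Ambra1*, *Mlh3* and *Adgrl1* (r = 0.96). Of the members, *Apcdd1* had an r of 0.91, *Lgr5* 0.86, *Sp5* 0.85, *Znrf3* 0.84, *Ctnnb1* 0.49, *Nkd1* 0.32, *Rnf43* 0.09 and *Lef1* -0.04, a description over 9 points that include the tumors as 2 of them.

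SS214 tumors were compared with SS tumors to read the effect of *miR-214* added by the virus on the tumor transcriptome. The authors report raised *miR-214* in tumors with a retroviral integration at its locus, and in several tumors without one. The paper names SS18, SS19 and SS23 as those with an integration, taken here to be the SS tumors labeled 18, 19 and 23. The SS group was therefore not free of raised *miR-214*, and its part in the differences below was not tested. The labels do not name an arm of this microRNA, so both arms that RefSeq records on chromosome 1 are shown, each with its seed (bases 2 to 8) in capitals. They share no seed, and which of them was raised was not measured on these arrays.
mmu-miR-214-5p: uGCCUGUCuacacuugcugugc
mmu-miR-214-3p: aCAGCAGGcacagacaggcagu

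*Axin2* fell most clearly among the members. Its intensity was 111 at the lowest, 173 at the median and 212 at the highest of 13 SS214 tumors, against 208, 366 and 467 in the 12 SS tumors. The overlap came from a single SS tumor, number 18 at 208, which lay below the 3 highest SS214 tumors. The next SS tumor, number 5, stood at 222. Tumors 19 and 23, named above together with tumor 18, stood at 415 and 379, above the SS median. *Axin2* was 2.12-fold lower in SS214 tumors (log2 difference -1.09, SE 0.14, adjusted p 3.31e-06) and was the only member probe set called, beside 1.61% of all probe sets called lower and 0.885% called higher.

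*Lgr5* was 230 to 784 in SS214 tumors (median 435), against 538 to 968 in SS tumors (median 728), a fall of 0.72 (SE 0.19, adjusted p 0.00331). *Znrf3* was 60.9 to 220 (median 130), against 154 to 284 (median 207), a fall of 0.78 (SE 0.18, adjusted p 0.00107), and its probe set 1437646_PM_at did not pass (4.05 against 4.10 on the log2 scale, adjusted p 0.597). *Nkd1* was 32.7 to 72.1 (median 41.8), against 48.0 to 96.8 (median 66.7), a fall of 0.62 (SE 0.14, adjusted p 0.000841). Its weaker probe sets had log2 means of 3.64 against 3.83 (1417278_PM_a_at), 4.48 against 4.45 (1429507_PM_at) and 3.97 against 4.00 (1440446_PM_at). In each of these genes the SS214 tumors spread downward while their highest values reached into the SS range.

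*Lef1* was 10.8 to 18.7 in SS214 tumors, of which 2 of 13 were under the floor, against 12.3 to 31.2 in SS tumors, and fell by 0.41 (SE 0.13, adjusted p 0.0121). *Sp5* was 41.0 to 146 in SS214 tumors against 37.2 to 229 in SS tumors and did not pass (difference -0.38, 95% interval -0.88 to 0.13, adjusted p 0.234). *Apcdd1* did not pass either, at 404 to 693 against 302 to 1261 (-0.25, interval -0.60 to 0.10, adjusted p 0.259). *Rnf43* was under the floor in 12 of 13 SS214 tumors and 10 of 12 SS tumors and was not compared.

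*Ctnnb1* again split by probe set. The brightest was 3569 to 5273 in SS214 tumors against 4307 to 4922 in SS tumors, and fell by 0.14 (SE 0.05, adjusted p 0.0243). Probe set 1430533_PM_a_at rose by 0.81 (7.60 against 6.79 on the log2 scale, SE 0.17, adjusted p 0.000475), and 1450008_PM_a_at did not pass (0.16, adjusted p 0.162). At any fold change, 8 of the 17 probe sets passed, beside 39.4% of all, 7 as lower and 1 as higher, beside 19.3% and 20.1%. Among other pathway genes, 11 of 15 nuclear partners of beta-catenin passed as lower, beside 17.3% of all genes. Another 3 passed as higher, where the share over all probe sets was 20.1%. *Tle3* was called lower, at a log2 mean of 8.80 in SS214 tumors and 9.88 in SS tumors (adjusted p 3.47e-05). The ligand *Wnt16* was called too, at 6.67 against 7.78 (adjusted p 0.000735).

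RNA quality differed between these groups. The *Gapdh* ratio was higher in SS tumors, and within them it had an r of -0.71 with *Znrf3*, -0.63 with *Nkd1*, -0.60 with *Lgr5* and -0.28 with *Axin2* over the 12 SS tumors, given as a description. With the ratio as a covariate the *Axin2* difference was -1.40 (adjusted p 0.00386) and that of *Lgr5* -1.12 (adjusted p 0.0426), *Znrf3* -1.26 (adjusted p 0.0178) and *Nkd1* -1.11 (adjusted p 0.00801), and *Ctnnb1* no longer passed (adjusted p 0.197). Only the 3 SS tumors numbered 24, 27 and 29, at ratios of 0.33, 0.45 and 0.37, lay within the range of SS214 tumors. Its upper end rests on SS214 tumor 9 at 0.48, the next being at 0.12, and without tumor 9 no SS tumor lay within it. With these alone the differences were -1.23 for *Axin2* (adjusted p 0.00265), -1.03 for *Lgr5* (adjusted p 0.0551), -1.03 for *Znrf3* (adjusted p 0.0507), -1.03 for *Nkd1* (adjusted p 0.00518), -1.17 for *Sp5* (adjusted p 0.0411), -0.74 for *Apcdd1* (adjusted p 0.0186) and -0.83 for *Lef1* (adjusted p 0.00199). *Sp5* and *Apcdd1* thus passed as lower here and not with all SS tumors, and *Ctnnb1* did not pass (-0.20, adjusted p 0.182). The called probe sets were 4 with the covariate and 3 with these tumors, against 1 with all.

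**Figure D3:**
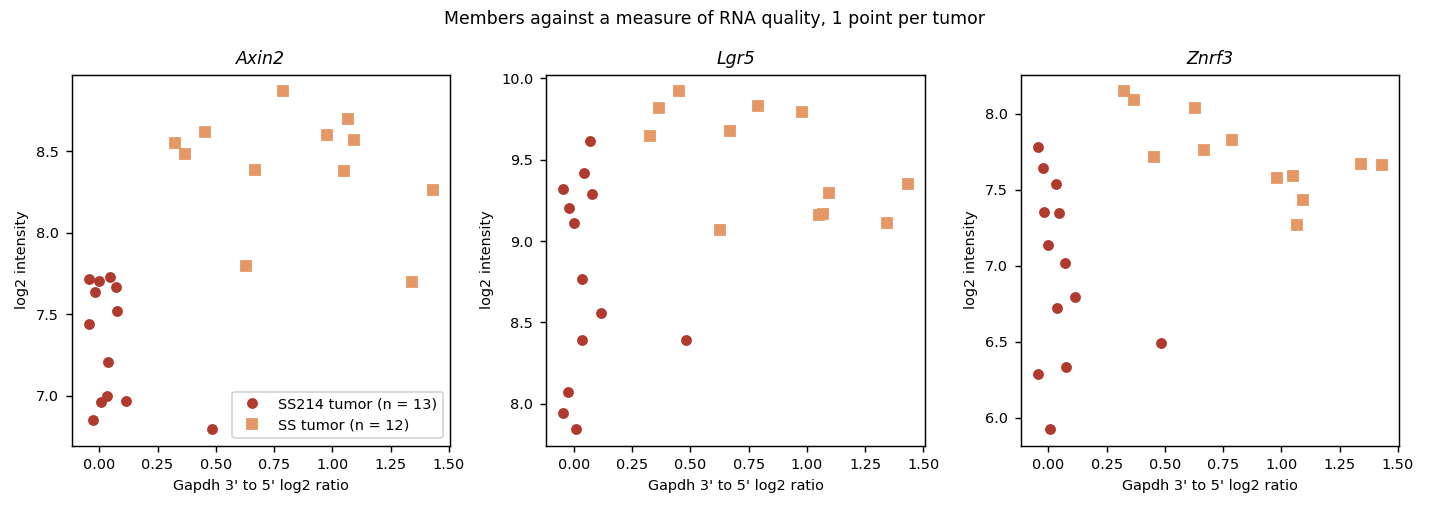
Log2 intensity of *Axin2*, *Lgr5* and *Znrf3* (y axes) against the *Gapdh* ratio defined above (x axis, log2), 1 point a tumor. SS214 tumors lie between -0.04 and 0.48 on the x axis and SS tumors between 0.33 and 1.43, and the 3 SS tumors at or under 0.48 lie above every SS214 tumor in *Axin2*.

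Marker sums differed as well. The neutrophil marker sum was 321 to 17950 in SS214 tumors (median 5505) against 142 to 4903 in SS tumors (median 403), the macrophage sum had medians of 3687 and 1621, and the cell cycle sum 2122 and 1614. Lung epithelium markers summed to 55 to 4778 in SS214 tumors and 49 to 137 in SS tumors. Without the 6 SS214 tumors high in lung markers, *Axin2* was lower by 1.07 (adjusted p 0.000205), *Lgr5* by 0.78 and *Znrf3* by 0.78, and *Lef1* no longer passed (adjusted p 0.0853). By staining, the authors found no difference in macrophage or granulocyte numbers between tumors with and without *miR-214*. The part of these cells in the member differences was not tested.

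Whether the members varied together from tumor to tumor was examined within each group, in 16 relations of *Axin2* with the other 8 genes. In SS214 tumors *Axin2* went with *Lef1* (r = 0.84, permutation p 0.00049, adjusted 0.00784; rho = 0.81, p 0.00145, adjusted 0.0137) and with *Lgr5* (r = 0.77, permutation p 0.00409, adjusted 0.0327; rho = 0.80, p 0.00171, adjusted 0.0137). Both held without the tumors farthest from the median of *Axin2*, numbers 7 and 9 (r = 0.89 and 0.73), and given the *Gapdh* ratio (0.80 and 0.82). *Apcdd1* had an r of 0.63 and did not pass (permutation p 0.0261, adjusted 0.078; rho = 0.57, p 0.0461, adjusted 0.184).

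In SS tumors no relation passed. The highest were *Apcdd1* (r = 0.70, permutation p 0.0116, adjusted 0.0618; rho = 0.51), *Lgr5* (r = 0.63, permutation p 0.0226, adjusted 0.078; rho = 0.65) and *Nkd1* (r = 0.62, permutation p 0.0292, adjusted 0.078; rho = 0.35). These rested on the SS tumors 18 and 5, without which r was 0.13, 0.33 and 0.07. The relation was not shown to differ between SS214 and SS tumors, since that difference was not tested.

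**Figure D4:**
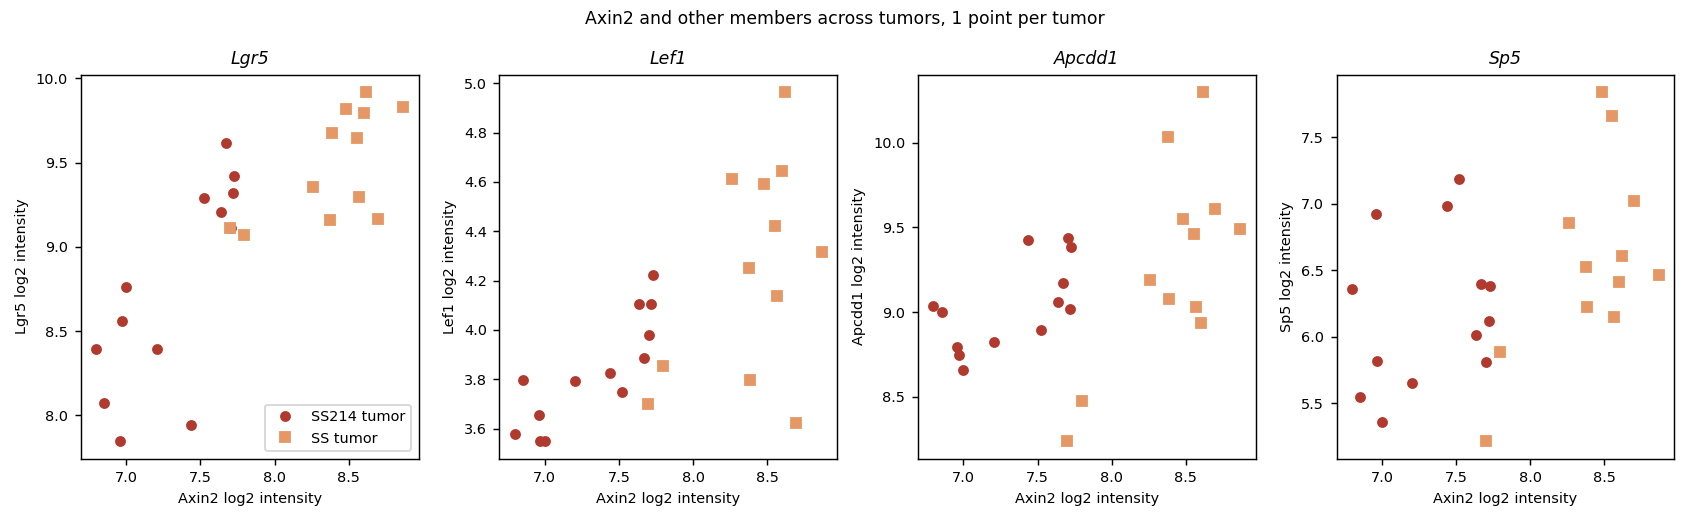
Log2 intensity of *Lgr5*, *Lef1*, *Apcdd1* and *Sp5* (y axes) against that of *Axin2* (x axis), 1 point a tumor, coloured by group. In SS214 tumors *Lef1* (r = 0.84) and *Lgr5* (r = 0.77) follow *Axin2*, and in SS tumors the 2 lowest in *Axin2*, numbers 18 and 5, stand apart.

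In the cell lines, *miR-214* was introduced into cultured sarcoma cells. Their muscle marker sum was 194 to 284 over 16 arrays, far below that of the tumors. *Apcdd1* was the one member that passed, in SS64. It was 153, 146, 149 and 142 in SS64 with *miR-214*, against 171, 173, 171 and 194 with NC, with no overlap, and fell by 0.26 on the log2 scale (SE 0.06, adjusted p 0.0212). Its probe set 1418382_PM_at fell by 0.32 (adjusted p 0.037) and 1418383_PM_at gave -0.38 without passing (adjusted p 0.0599). The 2 passing probe sets of 16 tested stand beside 5.79% of all probe sets that passed as lower and 9.54% that passed either way, and none was called, beside 0.193%. The fall did not pass without *miR-214* replicate 2 (-0.26) or without NC replicate 4 (-0.22), nor in 1 fit of all 53 arrays (-0.26, adjusted p 1.0).

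In SS40, *Apcdd1* was 314, 297, 287 and 307 with *miR-214*, against 351, 351, 340 and 349 with NC. These groups did not overlap, and the difference of -0.21 did not pass over all probe sets (adjusted p 0.441). None of 17 probe sets passed in SS40 with limma, beside 0.694% of all, none was called, beside 0.160%, and 2 had an unadjusted p under 0.05. The effect of *miR-214* on *Apcdd1* differed by -0.06 between SS64 and SS40 (interval -0.25 to 0.14, adjusted p 0.929). *Axin2* was 103, 93.5, 77.8 and 79.9 in SS40 with *miR-214*, against 115, 97.2, 105 and 78.7 with NC (difference -0.15, adjusted p 0.805). In SS64 it was 37.7, 40.8, 26.1 and 38.2 against 40.2, 40.8, 28.8 and 36.1 (-0.04, adjusted p 0.943).

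**Figure D5:**
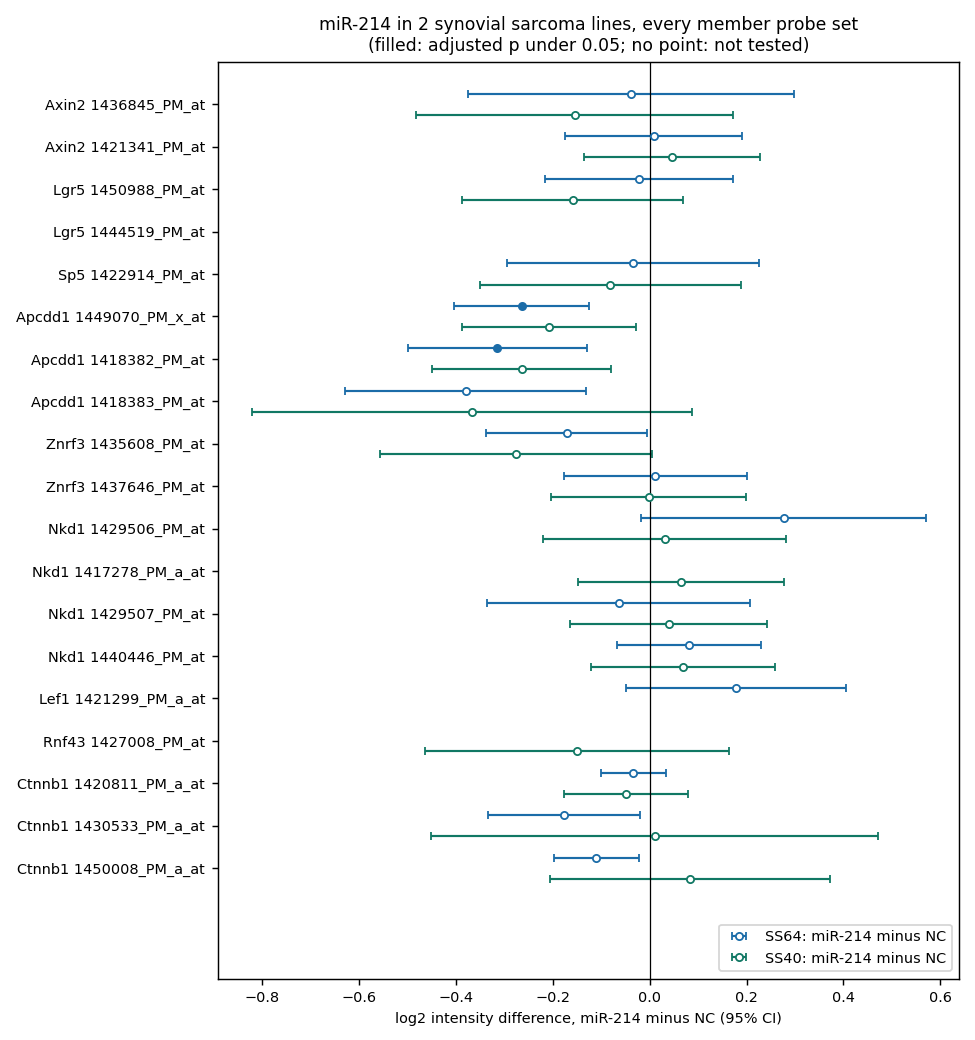
Log2 differences between *miR-214* and NC with 95% confidence intervals (x axis) for every member probe set tested in SS64 and SS40, filled where the adjusted p is under 0.05. Only 2 probe sets of *Apcdd1* in SS64 are filled, at -0.26 and -0.32, and the intervals of *Axin2* 1436845_PM_at cross 0 in both lines.

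The lines also differed from each other and from the tumors. *Axin2* was 2.71-fold lower in SS64 than in SS40, both with NC (log2 difference -1.44, SE 0.14, adjusted p 1e-05). *Apcdd1* was lower by 0.97 (171 to 194 against 340 to 351, adjusted p 2.73e-07), *Znrf3* by 0.54 (adjusted p 0.000162) and *Nkd1* by 0.58 (adjusted p 0.000846). The weaker *Nkd1* probe sets had closer log2 means in SS64 and SS40. They were 3.56 against 3.65 (1417278_PM_a_at), 4.65 against 4.65 (1429507_PM_at) and 3.93 against 4.00 (1440446_PM_at). *Rnf43* was measured in SS40 (22.0, 15.3, 15.9 and 18.2) and under the floor in SS64, at least 1.51-fold lower there, and *Lef1* was measured in SS64 (18.9, 17.6, 19.4 and 14.7) and under the floor in SS40, at least 1.5-fold higher in SS64. Each was tested only through the line in which it was above the floor. *Ctnnb1* was higher in SS64 by 0.11 at its brightest probe set, which passed, though not in 6 of 19 alternatives. Its other probe sets had log2 means of 8.30 in SS64 against 7.60 in SS40 (1430533_PM_a_at) and 10.36 against 10.00 (1450008_PM_a_at). Of 17 probe sets 2 were called lower and none higher, beside 4.48% and 5.23%, and 12 passed, 4 as higher and 8 as lower, beside 39.7% either way. *Rnf43* and *Lef1* are among the 12.

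Against SS tumors, *Lgr5* was 30.1-fold lower in SS40 with NC (20.0 to 26.3 against 538 to 968, adjusted p 3.74e-14) and 37.1-fold lower in SS64 with NC (18.0 to 21.1, adjusted p 7.61e-15). *Axin2* was 3.47-fold lower in SS40 (adjusted p 8.06e-08) and 9.40-fold lower in SS64 (adjusted p 2.73e-11), and *Sp5* 3.17-fold (adjusted p 0.000359) and 3.53-fold (adjusted p 0.000147). *Rspo3* had a log2 mean of 4.57 in SS40 and 4.00 in SS64, against 9.42 in SS tumors, and *Cdx2* had 5.47 and 5.57 against 9.64. In SS40, 3 of 18 probe sets were called lower and none higher, beside 12.9% and 10.1%, and 13 passed, beside 66.8%. *Lef1*, under the floor in all SS40 arrays with NC, and *Rnf43*, under it in 10 of 12 SS tumors, are among the 13. The count called lower in SS40 was 8 with the *Gapdh* ratio as a covariate and 7 with only SS tumors 24, 27 and 29. In SS64 7 of 17 were called lower and 1 higher, beside 12.0% and 9.59%, and 12 passed, beside 66.7%. The probe set called higher in SS64 was 1430533_PM_a_at of *Ctnnb1*, by 1.51 (adjusted p 2.21e-05). The cell cycle sum was 9814 to 10883 in SS40 and 10158 to 10883 in SS64, against 925 to 1927 in SS tumors. Culture conditions, marker sums and the *Gapdh* ratio all differ between the lines and the tumors and cannot be told apart here.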

How the data were processed

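The deposited values are linear intensities, 1 for each probe set on each array, already summarized and scaled by the authors. MAS5 is named in the submitters' processing notes and GeneSpring in the methods, and the values were not scaled again. Samples were grouped by their labels. Platform symbols were updated by gene ID for 28689 probe sets. Of the probe sets, 28898 had 1 symbol, 551 several and 15588 none, and 104 were controls.

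Values were raised to the floor (11.7, the median over arrays of the 20th percentile), put on the log2 scale and kept if above it in at least 4 arrays compared. The test was limma's (version 3.58.1, R version 4.3.3, eBayes with trend), on the 2 groups compared. The members, the pathway lists and the 14 marker lists were chosen with earlier results of these data known. All members are named, with up to 4 called genes of a list by size of change and the 5 genes most like *Axin2*, not all of which are printed. Correlations have permutation p-values (100000 resamples, two-sided, SciPy 1.17.1, Python 3.11.15) adjusted over 16 relations. On simulated data, 36 of 50 probe sets changed 1.5-fold and 45 of 50 changed 2-fold were recovered for SS214 against SS tumors, and 46 and 49 for the eMCs. Recovery was by adjusted p alone, with independent noise. The changed probe sets were drawn from those well above the floor, so these shares do not cover weak ones such as *Sp5* and *Lef1* in eMCs.

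Alternatives were quantile normalization, no filter, a higher floor (17.8, from the 40th percentile), averaging the probe sets of a gene, fitting all arrays together, the methods' t-test, the replicate block, the *Gapdh* covariate, any fold change and leaving out each replicate. Subsets of tumors were chosen after seeing the data. Same-numbered SS64 arrays departed from their group means together (correlations of 0.221 to 0.346) although no label states a pairing. Printed values come from fits without pairs, and the numbers entered only the replicate block.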

Additional observations from a re-analysis of the deposited data

Results flagged for a closer look

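Of 121 groups of 4 arrays, 12 held an array apart from the other 3 by Dixon's criterion, where chance flags about 1 in 20 groups of values not at the floor. On the log2 scale these were, for *Apcdd1*, SS64 NC array 4 at 7.60 (others 7.42 to 7.43) and empty virus array 2 at 4.84 in probe set 1418383_PM_at (others 5.20 to 5.23). For *Ctnnb1* they were empty virus array 4 at 11.94 (others 11.96), SS64 NC array 1 at 8.23 in 1430533_PM_a_at (others 8.32 to 8.33) and eMC *SS18-SSX1* array 4 at 10.66 in 1450008_PM_a_at (others 10.39 to 10.40).

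For *Nkd1* they were SS64 *miR-214* array 3 at 4.26 (others 4.67 to 4.74) and empty virus array 4 at 4.53 (others 4.79 to 4.84) in 1429507_PM_at, and SS64 NC array 2 at 3.60 in 1417278_PM_a_at, where the others were at the floor of 3.55. Also near the floor were eMC *SS18-SSX1* array 1 at 3.61 and tissue mixture array 1 at 3.66 in *Axin2* 1421341_PM_at, and SS40 *miR-214* array 3 at 3.64 and SS64 NC array 4 at 3.55 in *Lgr5* 1444519_PM_at. There too the other arrays were at the floor, so that any single value above it is flagged and the chance rate does not apply. The SS64 NC array 4 of *Apcdd1* is 1 of the 2 arrays whose removal ended the pass for *miR-214* in that line.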

How the results depend on the processing

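Of the results for single genes under the alternatives, 1356 kept their direction and side of the threshold, 41 lost it, 10 gained it and 32 changed sign, and of the counts 148 stayed within 1.5 times and 16 moved. The 1356 include 92 at any fold change, which could not differ because single genes were judged by adjusted p alone. *Axin2*, *Lgr5*, *Sp5* and *Apcdd1* kept direction and pass in SS tumors against all 3 groups under every alternative run, with *Axin2* between 1.09 and 2.27 against the mixture. At any fold change the counts of passing probe sets were 10 in eMCs, 12 for SS tumors against either eMC group, 8 for SS214 against SS tumors, 2 for *miR-214* in SS64, 12 between the lines and 13 for SS40 against SS tumors. With the *Gapdh* covariate the called probe sets were 4 for SS214 against SS tumors, 1 between the lines and 8 for SS40 against SS tumors, and with only the 3 SS tumors in the shared ratio range 3 and 7. Between the lines the count was 1 under quantile normalization, and 1 to 3 when leaving out 1 array (1 without SS64 NC replicate 2, SS40 NC replicate 1 or SS40 NC replicate 2).

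Signs turned mainly for differences near 0 and for *Ctnnb1* and *Nkd1*, whose probe sets disagree. The mean over probe sets gave *Ctnnb1* -0.37, -0.49 and 0.28 (SS tumors against empty virus and *SS18-SSX1* eMCs, SS214 against SS), 0.015 in SS40 with *miR-214*, 0.15 and 0.55 (SS40 and SS64 against SS tumors) and -0.12 for the difference between the lines. It gave *Nkd1* -0.15 in eMCs and -0.26 and -0.11 in SS tumors against the 2 eMC groups, and *Lgr5* 0.013 in SS64 with *miR-214*. Quantile normalization gave *Nkd1* -0.10, -0.19 and -0.087 in those 3 comparisons, and the *Gapdh* covariate gave -0.018 for *Ctnnb1*, -0.26 for *Lgr5* and -0.67 for *Nkd1* in eMCs. The cause was not tested where the probe sets do not show it.

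Leaving out 1 array gave *Nkd1* -0.054 to 0.088 in eMCs, -0.018 to 0.104 and -0.038 to 0.070 in SS tumors against the 2 eMC groups, and -0.034 to 0.086 in SS40 with *miR-214*. In SS64 with *miR-214* it gave *Axin2* -0.15 to 0.11, *Lgr5* -0.056 to 0.040 and *Sp5* -0.131 to 0.032. With a floor at the 40th percentile the *Lef1* difference from the mixture was 0.23, and its p is not read there either. The replicate block changed no call of a member (*Axin2* in eMCs -0.35, adjusted p 0.00177), and same-number arrays correlated at 0.011 to 0.153 in eMCs and -0.282 to 0.464 in SS40. Weak genes near the floor are compressed, and 4 arrays a group limit precision.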
